A study of Homo sapiens with 5 samples.

Results

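The MHC class II genes of this series were followed in TF-1, a growth factor dependent cell line that was established from a human erythroleukaemia. The members are the 7 genes HLA-DPA1, HLA-DPB1, HLA-DRA, HLA-DMA, HLA-DMB, CD74 and CIITA, of 11963 genes on the array. They were found as all probe sets to which the platform annotation gives 1 of these symbols alone, which gave 12 of 19065 such probe sets. The genes were chosen by their log2 signals on these same arrays, so the levels and differences below describe the members and test nothing. Signals were read from 5 Affymetrix arrays, 1 for each group. Vector cells carried the retroviral vector MSCV-GFP, and DbSCL cells carried MSCV-DbSCL, which encodes an SCL protein that cannot bind DNA (SCL is the product of TAL1). All cells had been kept in GM-CSF and were starved of growth factor overnight. Vector cells then received GM-CSF (5 ng/mL), Steel factor (SF, the ligand of c-Kit, 20 ng/mL) or erythropoietin (Epo, dose not given in the labels) for 6 h, and DbSCL cells received SF or Epo. The series sets the cytokines against each other to find c-Kit regulated genes, and DbSCL against vector under the same cytokine to find SCL regulated genes. Every group is 1 bulk RNA sample of 1 line and no array comes from cells left without cytokine. With 1 array per group no p-value or error can be given for any difference.

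MHC class II molecules are pairs of an alpha and a beta chain that carry peptides from the endosomal pathway to the surface of antigen presenting cells, where CD4+ T cells read them. CD74, the invariant chain, escorts new class II pairs to the endosome and blocks their groove, and HLA-DM, a pair of HLA-DMA and HLA-DMB, exchanges the last piece of CD74 for peptide. CIITA is the coactivator that switches these genes on together. It does not bind DNA itself but docks on a complex of RFX, CREB and NF-Y proteins at the X and Y boxes shared by class II promoters. HLA-DR is a well known surface antigen of myeloid progenitors and is lost as erythroid cells mature.

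Upstream sequences are shown because these shared boxes are the textbook basis for treating the genes as 1 group, whereas their signals did not share 1 profile here. RefSeq start windows (GRCh38.p14) were matched for 5 of the 7 genes, all but HLA-DRA and CIITA. HLA-DPA1 has windows at 2 starts, of which the one with a box in its last 150 bases is shown. Each line gives bases -150 to -1 before the start, 5′ to 3′ on the gene's strand. Capitals mark ATTGG, the core of the Y box, on either strand (CCAAT on the other), and CCNNGNNAC, a short form of the X box, also searched on both strands:
HLA-DPA1 (chr6:33073650-33073799, - strand): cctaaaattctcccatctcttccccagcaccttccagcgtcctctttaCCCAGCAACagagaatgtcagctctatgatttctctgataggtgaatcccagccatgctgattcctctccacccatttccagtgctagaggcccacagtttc
HLA-DPB1 (chr6:33075840-33075989, + strand): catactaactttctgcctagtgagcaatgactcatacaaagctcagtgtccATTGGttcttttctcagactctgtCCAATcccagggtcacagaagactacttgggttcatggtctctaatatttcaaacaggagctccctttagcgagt
HLA-DMA (chr6:32953098-32953247, - strand): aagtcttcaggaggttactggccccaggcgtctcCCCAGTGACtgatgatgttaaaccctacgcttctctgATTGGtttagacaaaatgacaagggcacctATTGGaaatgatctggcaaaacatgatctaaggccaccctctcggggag
HLA-DMB (chr6:32941029-32941178, - strand): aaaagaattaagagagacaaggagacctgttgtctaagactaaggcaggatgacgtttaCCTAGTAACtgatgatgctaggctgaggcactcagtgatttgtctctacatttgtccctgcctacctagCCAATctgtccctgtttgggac
CD74 (chr5:150412911-150413060, - strand): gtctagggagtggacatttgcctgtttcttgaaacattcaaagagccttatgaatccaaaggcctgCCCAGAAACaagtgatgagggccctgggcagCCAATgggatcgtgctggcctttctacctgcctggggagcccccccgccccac
Within these stretches CCNNGNNAC was found at -102 in HLA-DPA1, -116 in HLA-DMA, -91 in HLA-DMB and -84 in CD74, in each case on the strand of the gene. No exact match was found in the 250 bases before the HLA-DPB1 start. Only exact matches were sought, so this does not show that HLA-DPB1 lacks an X box. ATTGG lay at -99 in HLA-DPB1 and at -79 and -49 in HLA-DMA on the same strand. On the opposite strand it lay at -75 in HLA-DPB1, -22 in HLA-DMB and -53 in CD74. HLA-DPA1 had no ATTGG in either window. These short motifs are common: of 35116 windows of 250 bases, 32.0% held ATTGG and 43.9% held CCNNGNNAC. A longer form, the short one followed directly by NNATG, was in 0.447% of windows and in those of HLA-DMA and HLA-DMB. A match, or the lack of one, describes the letters only.

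The arrays themselves differed. Hybridization controls, spiked in after labelling, had mean log2 signals of 9.85 to 10.82, lowest on vector Epo and highest on DbSCL SF, and 28S ribosomal RNA ran from 5.80 on vector Epo to 7.82 on vector GM-CSF. The poly(A) controls of the array went the other way, from 9.73 on vector GM-CSF to 10.16 on vector Epo. The 3' minus 5' beta-actin signal, a measure of transcript integrity and labelling, ran from 1.89 on vector SF to 3.33 on DbSCL SF. TAL1 itself was not higher in DbSCL than in vector cells in its brightest probe set (8.31 and 8.59 on vector SF and Epo, 8.29 and 8.31 on DbSCL SF and Epo). A second TAL1 probe set read 7.49 and 7.56 on vector SF and Epo and 7.55 and 7.75 on DbSCL SF and Epo, and whether the probes cover the construct was not examined. Median signals of all probe sets lay between 4.89 and 4.98. A floor was set at 4.45, the 40th percentile of all signals, and lower values were raised to it. Of the 12 member probe sets, 9 exceeded the floor on each of the 5 arrays, 1 (the weakest of HLA-DPA1) on vector Epo only, and 2 of CIITA on none. A difference was called at 2-fold, a log2 difference of 1 or more in size. Where several probe sets measured a gene, the brightest by mean signal stood for it. The others are given for the members, and for other genes where they bear on a named value.

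HLA-DPA1, the alpha chain of HLA-DP, varied most among the members. Its brightest probe set gave a log2 signal of 8.20 on vector GM-CSF, 8.66 on vector SF, 9.28 on vector Epo, 7.76 on DbSCL SF and 7.98 on DbSCL Epo. The 3 vector arrays were thus all above the 2 DbSCL arrays, with vector Epo highest. The second probe set, which was designed on the same sequence record, read 5.89, 6.17 and 7.08 on the GM-CSF, SF and Epo arrays of vector cells and 5.86 and 5.50 on DbSCL SF and DbSCL Epo. It also had vector Epo highest and the DbSCL arrays lowest, although vector GM-CSF and DbSCL SF lay close together. The third exceeded the floor only on vector Epo (4.59). The sign of its floored differences with that array is set by the floor, so nothing is read from it.

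**Figure D1:**
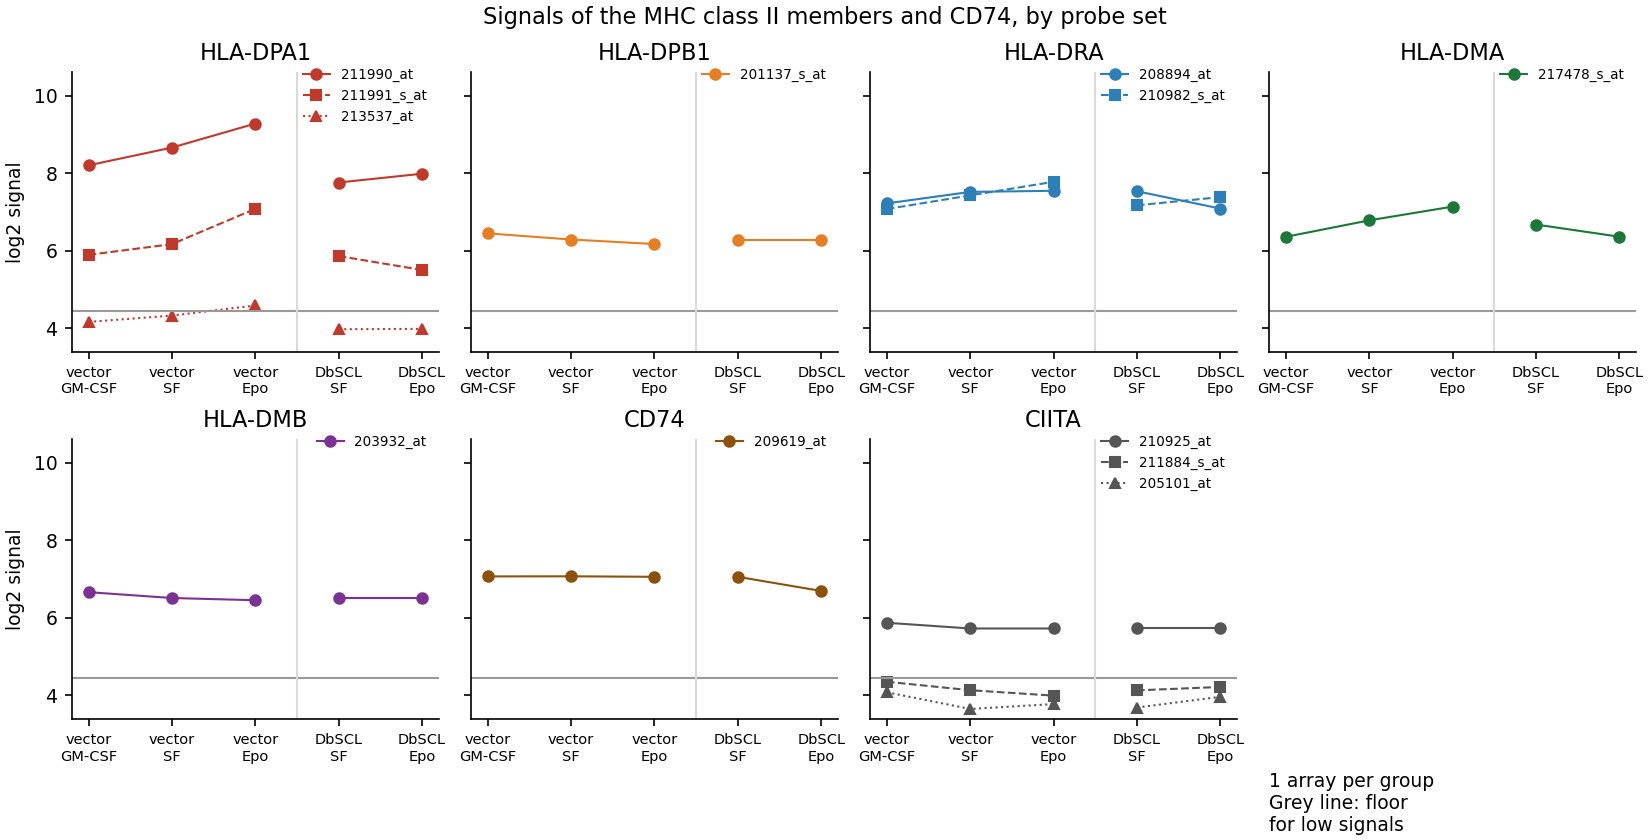
Log2 signal (vertical axis) of each member probe set on the 5 arrays (horizontal axis), with 1 point per array, lines joining arrays of the same cells and a grey line at the floor of 4.45. HLA-DPA1 runs from 7.76 to 9.28 in its brightest probe set, while HLA-DPB1, HLA-DMB and CIITA stay within 0.27 in theirs.

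Under Epo, HLA-DPA1 was lower in DbSCL than in vector cells by 2-fold or more in both bright probe sets. The log2 difference was -1.29 (2.45-fold) in the first, the 8th lowest of 8359 genes, and -1.58 (2.98-fold) in the second, the lowest of 11821 probe sets compared. Under SF both were lower in DbSCL cells too, but short of 2-fold, with -0.90 (rank 66 from the lowest of 8450 genes; -0.52 with the mean of all probe sets) and -0.31. The probe sets disagreed there by 0.59, and 7.63% of the 2216 genes with 2 probe sets above the floor disagreed by more. The DbSCL difference was larger under Epo than under SF by 0.39 in the first probe set and by 1.27 in the second. On DbSCL Epo against vector Epo, 28S differed by 0.89, the hybridization controls by 0.18 and the beta-actin measure by 0.27, all higher. On DbSCL SF against vector SF the same measures were higher by 0.53, 0.53 and 1.44. Their part in the HLA-DPA1 differences was not tested. These are bulk samples, so fewer cells with the transcript and less transcript per cell cannot be told apart.

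Among cytokines in vector cells, HLA-DPA1 was highest under Epo. Epo minus GM-CSF was 1.08 in the first probe set and 1.19 in the second, both past 2-fold. The first had rank 224 from the highest of 8581 genes, and the second rank 207 from the highest of 12200 probe sets. The call of the first was lost with quantile normalization (0.72), with loess (0.81) and with the mean of all probe sets (0.90). Vector Epo minus vector GM-CSF was -0.95 for the hybridization controls, -2.02 for 28S and 0.43 for the poly(A) controls, and their part was not tested. SF minus GM-CSF was 0.46 and 0.28, the first being 0.19 with quantile normalization, 0.25 with loess and 0.30 with the mean of all probe sets. SF minus Epo was -0.62 and -0.91, the last being the 7th lowest of 11768 probe sets but under 2-fold. In DbSCL cells the probe sets differed in sign between SF and Epo (-0.23 and 0.36), so no order of those arrays is given.

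HLA-DPB1, which encodes the beta chain that pairs with HLA-DPA1 and is the next protein-coding gene on chromosome 6, did not share this profile. Its single probe set read 6.45 on vector GM-CSF, 6.29 on vector SF and 6.17 on vector Epo. It held the identical value of 6.29 on both DbSCL arrays and on vector SF. The DbSCL difference was therefore 0.00 under SF and 0.12 under Epo, and Epo minus GM-CSF was -0.27, the opposite sign to HLA-DPA1. Repeated values are common here: 58.6% of all probe sets, and 4 of the 12 member probe sets, held equal values on 2 or more arrays. Over all probe sets, 6.24% held 1 value on these 3 arrays. Such a tie with vector GM-CSF above it and vector Epo below it was in 1.84% of all. Among the 12 member probe sets it was in 2, those of HLA-DPB1 and HLA-DMB. The pattern was taken from these probe sets, so the count follows from that choice.

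**Figure D2:**
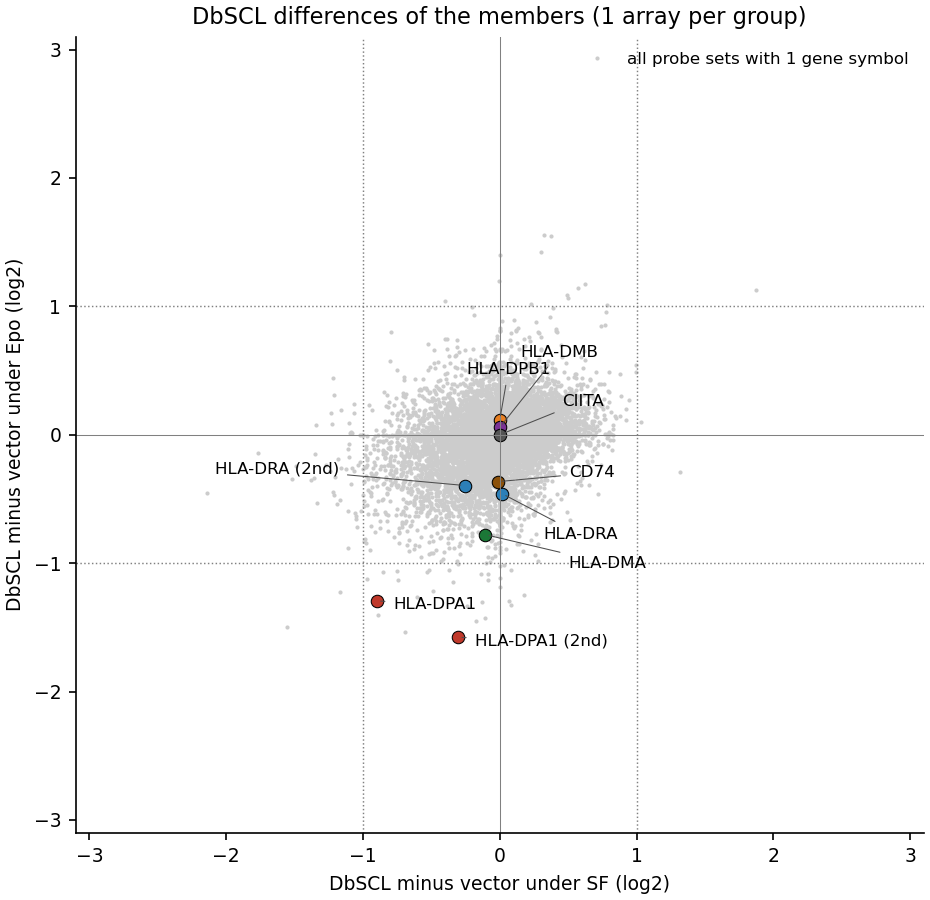
Log2 difference of DbSCL minus vector under SF (horizontal axis) and under Epo (vertical axis), with 1 grey point per probe set, named points for the 9 member probe sets above the floor on all arrays and dotted lines at 2-fold. Both HLA-DPA1 probe sets lie below -1 on the Epo axis, at -1.29 and -1.58, and HLA-DPB1, HLA-DMB and CIITA lie at or near 0 on both axes.

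HLA-DRA, the nearly invariant alpha chain of HLA-DR, was measured by a pair of probe sets of similar brightness. The first read 7.22, 7.52 and 7.54 on the GM-CSF, SF and Epo arrays of vector cells and 7.53 and 7.09 on DbSCL SF and DbSCL Epo. The second read 7.07, 7.43 and 7.78 and then 7.17 and 7.38. Both placed vector Epo highest and vector GM-CSF among the lower arrays, and they disagreed on which DbSCL array was lower. In the first, vector Epo led DbSCL SF by 0.01 and vector SF by 0.03. There SF minus Epo in vector cells ran from -0.19 to 0.03 over the alternatives, so that lead is not firm. Under Epo both probe sets were lower in DbSCL than in vector cells, with differences of -0.46 and -0.39. Under SF the differences were 0.02 and -0.26, and the first was -0.03 with median subtraction and -0.12 with the mean of all probe sets. Epo minus GM-CSF was 0.32 and 0.70, and SF minus GM-CSF was 0.30 and 0.35. With quantile normalization these values were 0.05 and 0.43 for Epo and 0.08 and 0.16 for SF, and with loess the first probe set gave 0.14 for both. No HLA-DRA difference reached 2-fold in the 6 comparisons.

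Other class II chains were taken from a list of 11 genes, 8 of them with a probe set annotated to them alone and 7 above the floor. Whether those probes also read related class II genes was not examined. No gene of the list reached 2-fold in any of the 6 comparisons. A further 5 class II probe sets carry several symbols and were left out. Under Epo, DbSCL minus vector had a list median of -0.07, with 4 of 7 genes below 0. It was -0.18 for HLA-DRB1, the main beta chain partner of HLA-DRA, whose signals were 8.25, 8.49 and 8.33 on the GM-CSF, SF and Epo arrays of vector cells and 8.42 and 8.14 on DbSCL SF and DbSCL Epo. The lowest of the list was HLA-DQB1 (-0.42) and the highest HLA-DOA (0.29), the alpha chain of HLA-DO, which restrains HLA-DM. Other HLA-DQB1 probe sets above the floor gave -0.14 to 0.24, so that value rests on 1 probe set. HLA-DOA was also the lowest of the list for SF minus GM-CSF (-0.58) and for Epo minus GM-CSF (-0.52). Of its further probe sets, the pair above the floor differed by 0.33 and 0.01 for DbSCL minus vector under Epo, and -0.56 and -0.15 for Epo minus GM-CSF.

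HLA-DMA and HLA-DMB encode the 2 chains of the peptide exchange factor HLA-DM and are neighbours on chromosome 6. HLA-DMA read 6.36 on vector GM-CSF, 6.78 on vector SF and 7.14 on vector Epo, and 6.67 and 6.36 on DbSCL SF and DbSCL Epo. Vector Epo was highest, as for HLA-DPA1, and vector GM-CSF and DbSCL Epo were equal to 2 decimals. Under Epo it was lower in DbSCL cells, with a difference of -0.78 (1.71-fold), rank 76 from the lowest of 8359 genes, against -0.11 under SF. Epo minus GM-CSF was 0.78 and SF minus GM-CSF 0.42. HLA-DMB read 6.66, 6.51 and 6.45 on the GM-CSF, SF and Epo arrays of vector cells and 6.51 on both DbSCL arrays, the value of vector SF again repeated. Its DbSCL difference was 0.00 under SF and 0.06 under Epo, and Epo minus GM-CSF was -0.21. In both the HLA-DP and the HLA-DM pair the alpha chain gene therefore had the wider range over the arrays, 1.52 against 0.27 and 0.78 against 0.21. HLA-DPB1, HLA-DMA and HLA-DMB have 1 probe set each, and where these lie in the transcripts was not examined.

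CD74 stayed level on 4 arrays and was lower on the fifth. It read 7.07, 7.07 and 7.06 on the GM-CSF, SF and Epo arrays of vector cells, 7.06 in DbSCL cells under SF and 6.69 in DbSCL cells under Epo. DbSCL minus vector was -0.36 under Epo (1.29-fold), rank 741 from the lowest of 8359 genes, and -0.01 under SF. Its differences among cytokines in vector cells were 0.01 or less in size as deposited, and turned in sign with the scaling: Epo minus GM-CSF was -0.23 with quantile normalization and 0.08 with median subtraction. HLA-DRA was likewise lowest on DbSCL Epo in its first probe set, but on vector GM-CSF in its second. HLA-DPA1 was lowest on DbSCL Epo in its second probe set, but on DbSCL SF in its brightest. No shared low on DbSCL Epo is therefore read from these genes.

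CIITA, the coactivator of all these genes, showed little. Its brightest probe set read 5.87 on vector GM-CSF and the identical value of 5.73 on the 4 other arrays, so its DbSCL difference was 0.00 under both cytokines. The other 2 probe sets, at 3.99 to 4.35 and 3.65 to 4.08, never exceeded the floor. The DNA-binding partners of CIITA were taken from a list of 7 genes, of which 6 were above the floor (RFXAP was not). All 6 were above 0 for SF minus GM-CSF (median 0.31) and Epo minus GM-CSF (median 0.50), where the median over all genes was 0.00, and this count of 6 was the same with quantile normalization, median subtraction and loess. Of these, 1 reached 2-fold, the NF-Y subunit gene NFYB under Epo (1.15), whose other probe sets were below the floor, and the call was lost with quantile normalization (0.99) and with the mean of all probe sets (0.02). Under Epo all 6 were lower in DbSCL than in vector cells, with a median of -0.27 (-0.30 to -0.21 over those scalings, 6 below 0 in each) and 0 at 2-fold, from NFYB (-0.40) to NFYC (-0.04). When all probe sets of a gene were averaged, the list median was smaller in size, -0.13 here, 0.18 for Epo minus GM-CSF and 0.11 over 5 genes for SF minus GM-CSF. RFX5, 1 of the RFX subunits that class II expression requires, gave -0.31 there. It read 6.62, 6.88 and 7.19 on the GM-CSF, SF and Epo arrays of vector cells and 6.87 and 6.88 on DbSCL SF and DbSCL Epo. Its other probe set, of similar brightness, read 6.92, 6.88 and 6.71 on the vector arrays in that order and then 6.69 and 6.60. That probe set gave -0.12 for DbSCL minus vector under Epo and -0.20 for Epo minus GM-CSF, the opposite sign to the 0.57 of the first, so no cytokine order is given for RFX5. Under SF 5 of 6 were lower, with a median of -0.10 and a lowest value of -0.74 for NFYB, and 4 of 6 were with quantile normalization or loess. The lists share arrays with the members, so these directions are not separate evidence.

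Counted over the members, calls at 2-fold were few. For DbSCL minus vector under Epo, 1 of 7 genes (HLA-DPA1) was called lower, where 0.275% of all genes compared were. Of 10 probe sets compared 2 were, against 0.271% of all. Of the genes, 4 of 7 lay below 0, with a median of -0.36 against 0.00 over all genes. For Epo minus GM-CSF, 1 of 7 genes (HLA-DPA1) was called higher, where 3.46% of all were, and 2 of 10 probe sets, against 3.42% of all. Of the genes, 3 of 7 lay above 0 with a median of -0.01. No member was called in the other 4 comparisons. There the share of all genes called in either direction was 0.596% for SF minus GM-CSF, 0.0361% for SF minus Epo in vector cells, 0.355% for DbSCL minus vector under SF and 0.224% for SF minus Epo in DbSCL cells. The members' median was 0.00 in each of these 4. Because the members were picked on these contrasts, the counts describe them and no more is read from them. The comparisons share arrays: vector Epo is in 3 of the 6, among them both comparisons with a call.

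**Figure D3:**
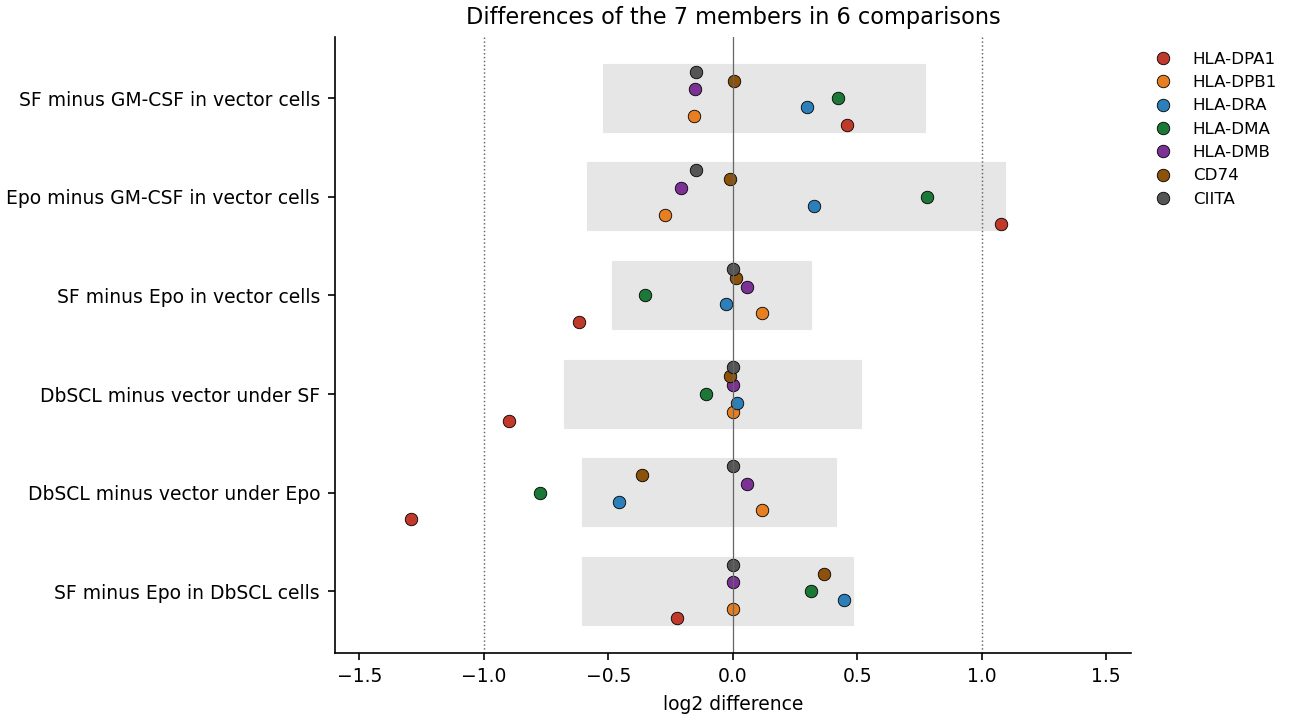
Log2 difference (horizontal axis) of the 7 members, by their brightest probe set, in each of the 6 comparisons (vertical axis). Grey bars span the central part of all genes compared, leaving out 2.5% at each end, and dotted lines mark 2-fold. HLA-DPA1 lies outside the grey bar at -1.29 for DbSCL minus vector under Epo, and HLA-DMA lies outside it at -0.78.

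The genes most like HLA-DPA1 over the 5 arrays were sought among 441 genes with a range of at least 1. Likeness was the root mean square difference of the profiles, each taken minus its own mean. HEBP1, a haem-binding protein gene, came first with 0.09. It read 6.33, 6.89 and 7.39 on the GM-CSF, SF and Epo arrays of vector cells and 6.00 and 5.99 on DbSCL SF and DbSCL Epo. CD36, a scavenger receptor also present on early erythroid cells (0.13), LXN, the carboxypeptidase inhibitor latexin (0.13), ADD3, the gamma-adducin of the membrane skeleton (0.15), and BHLHE40, a basic helix-loop-helix repressor (0.16), followed. All 5 were highest on vector Epo and lower on both DbSCL arrays than on the vector array of the same cytokine. They were picked for likeness to HLA-DPA1 on these arrays, so this shared shape follows from the choice. Other probe sets of CD36, ADD3 and BHLHE40 varied less or differently: under Epo, DbSCL minus vector was -1.53 in the CD36 probe set chosen and -0.36 in another. With the mean of all probe sets 1 of the 5 stayed among the closest, and with quantile normalization 3 did. None of the other members had a range of 1. Their distances from HLA-DPA1 were 0.35 for HLA-DMA, 0.48 for HLA-DRA and 0.51 to 0.59 for CD74, CIITA, HLA-DMB and HLA-DPB1.

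**Figure D4:**
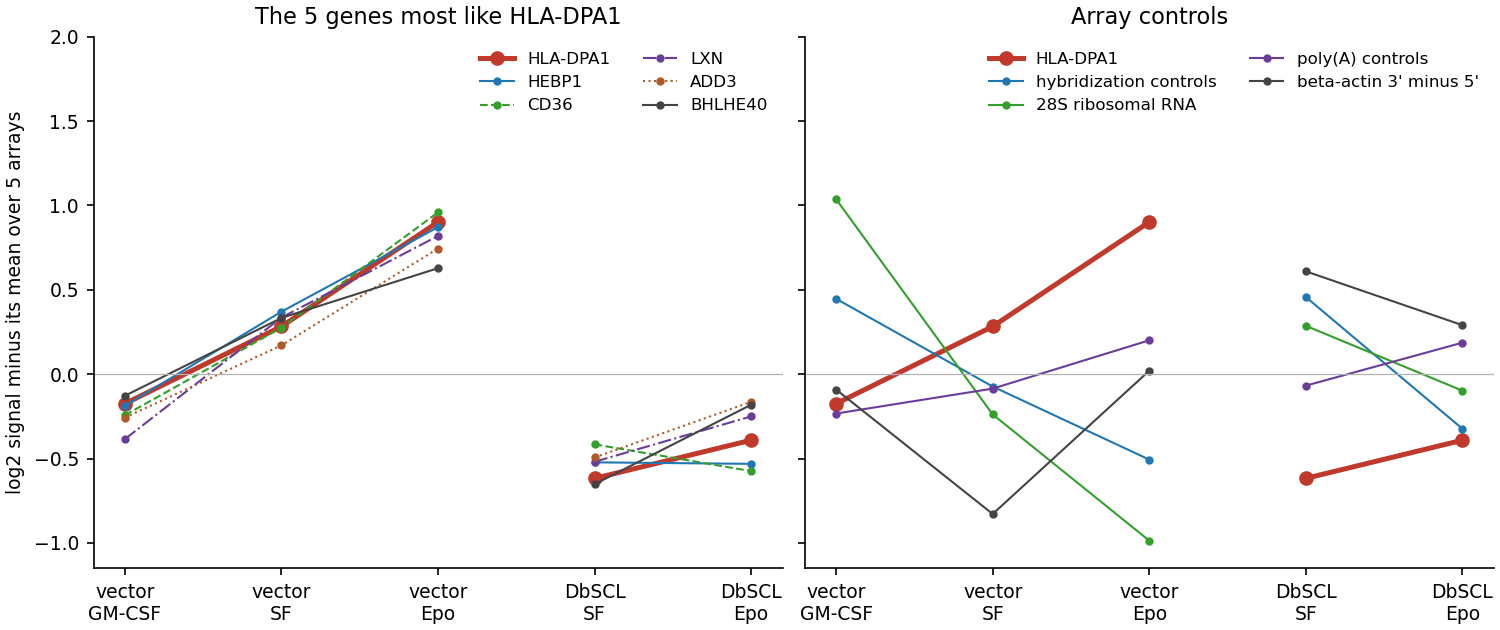
Log2 signal minus its mean over the 5 arrays (vertical axis) on each array (horizontal axis), for HLA-DPA1 with the 5 genes closest to it (left) and for HLA-DPA1 with the array controls (right). The 5 genes were picked for likeness to HLA-DPA1 and so peak with it on vector Epo. On that array the hybridization controls (9.85) and 28S (5.80) were lowest and the poly(A) controls (10.16) highest.

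Genes of related pathways seldom reached 2-fold. Of 10 class II processing genes on the array, 8 or 9 were compared and 0 reached 2-fold in any comparison. For DbSCL minus vector under Epo their median was 0.06, from CTSL (-0.29), which trims CD74 in some tissues, to CTSF (0.29). CTSS, the main protease for CD74 in B cells and dendritic cells, gave -0.27. Class I presentation genes, 16 compared, had a median of -0.12 in that comparison with 0 at 2-fold, 12 below 0 and 3 above, but 9 below and 7 above with quantile normalization or loess. The lowest was the immunoproteasome gene PSMB9 (-0.37) and the highest TAPBP, tapasin (0.30). B2M, the class I light chain, read 10.33, 10.59 and 10.65 on the GM-CSF, SF and Epo arrays of vector cells and 10.42 and 10.59 on DbSCL SF and DbSCL Epo, and differed by -0.06 for DbSCL minus vector under Epo. Its other probe set gave -0.26 there, and 0.73 against 0.32 for Epo minus GM-CSF.

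Interferon gamma is the classical inducer of CIITA. Its gene IFNG and the target genes GBP1 and GBP2 were below the floor on all 5 arrays. In contrast, 13 genes of this list exceeded it on every array. Among them were the targets CXCL10 (4.70 to 5.27), IDO1 (5.37 to 5.84) and WARS1 (9.16 to 9.52). Of 17 genes of this list on the array, 14 were compared for DbSCL minus vector under Epo, with a median of -0.05 and 0 at 2-fold. JAK1, a kinase of the interferon receptors, was the lowest there (-0.56). It was the 1 gene of the list called elsewhere, higher by 1.04 under SF and 1.43 under Epo than under GM-CSF, and the SF call was lost with quantile normalization (0.80) and loess (0.83). JAK1 read 7.42 on vector GM-CSF and 8.29 to 8.85 on the other 4 arrays. The 6 factors of the CIITA promoters on the array had a median of 0.05 for DbSCL minus vector under Epo and of -0.24 for Epo minus GM-CSF, with 0 at 2-fold in either. SPI1, the myeloid and B cell factor PU.1, read 4.75 to 5.12, close to the floor. Of 5 chromatin and coactivator genes compared, CREBBP, an acetyltransferase that works with CIITA, was the 1 called, higher under SF than under GM-CSF (1.01), and 0.31 with the mean of its probe sets. For DbSCL minus vector under Epo the 5 had a median of -0.15 and 0 at 2-fold.

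**Figure D5:**
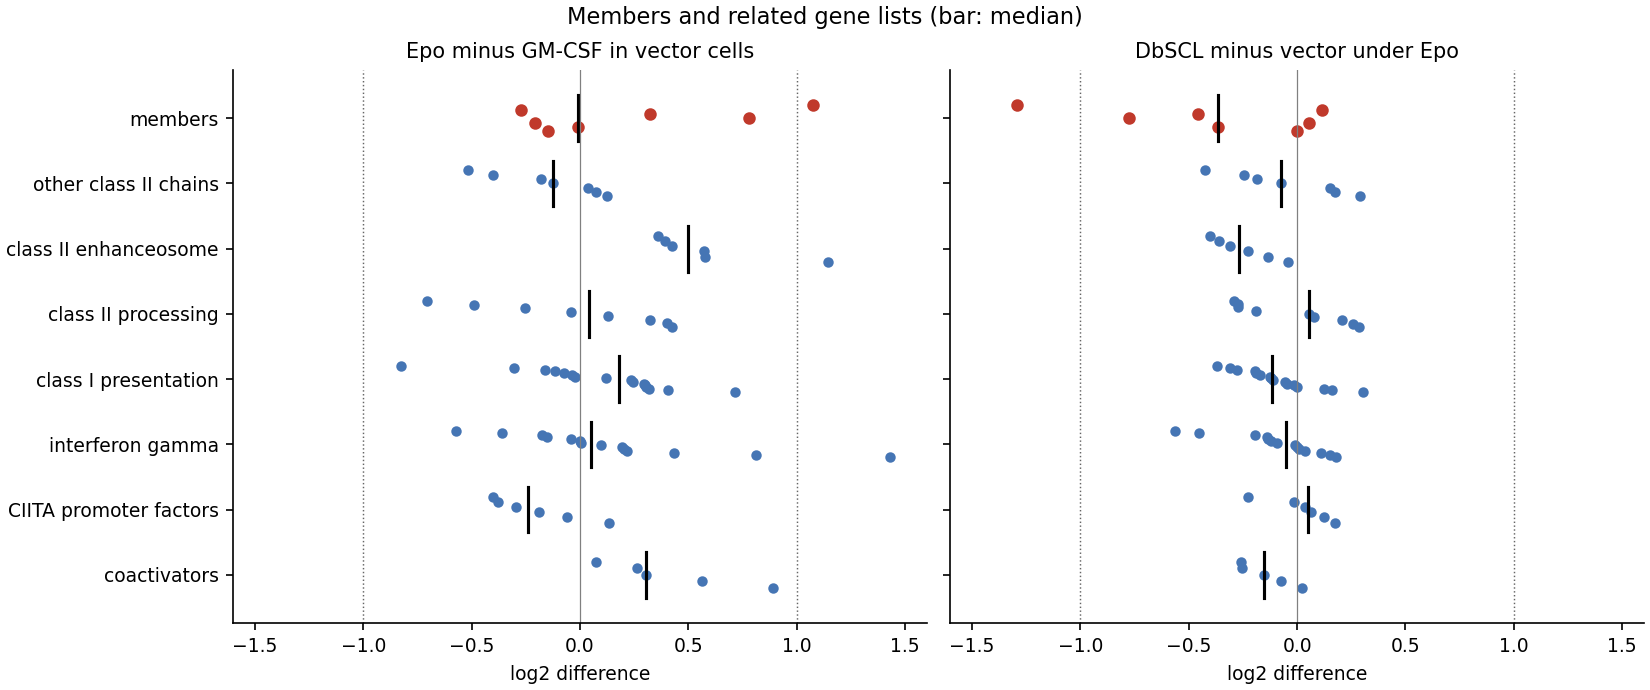
Log2 difference (horizontal axis) of the members (red) and of each gene of 7 related lists (blue), by list (vertical axis), for Epo minus GM-CSF in vector cells (left) and DbSCL minus vector under Epo (right), with black bars at list medians and dotted lines at 2-fold. On the right the member median is -0.36, and all 6 enhanceosome genes lie below 0.

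Class II molecules are typical of B cells, macrophages and dendritic cells, so markers of these cells were read on the same arrays. Of 9 monocyte and macrophage markers only LYZ exceeded the floor, and CD14 and CSF1R were below it on every array. Of 7 B cell markers on the array, 4 exceeded it on all arrays in their brightest probe sets. These were CD22 (6.14 to 6.83), CD79A (5.58 to 6.26), BLK (6.02 to 6.29) and PAX5 (5.07 to 5.49). The B cell markers MS4A1 (CD20) and CD79B exceeded the floor on vector GM-CSF alone, at 4.57 and 4.49, and CR2 on none. The summed linear signal of the B cell list was 367 on vector GM-CSF, 288 on vector SF, 266 on vector Epo, 328 on DbSCL SF and 292 on DbSCL Epo, and its part in the class II signals was not tested. That sum takes in markers below the floor. Medians over all probe sets were 4.98, 4.91, 4.89, 4.96 and 4.92 on these arrays in that order, which ranks them alike. Of 7 dendritic cell markers 3 exceeded the floor on all arrays, and LAMP3 and CCR7 on none. The 3 were CD83 (7.06 to 7.48), CD1C (4.88 to 5.12) and FLT3 (4.68 to 4.91). The summed signal of this list ran from 269 on vector GM-CSF to 313 on DbSCL SF and was 285 on vector Epo and 281 on DbSCL Epo. Of the 8 T cell markers 4 exceeded the floor on all arrays, with a summed signal of 257 on vector Epo to 296 on vector GM-CSF. Among these 4, CD3D read 6.45 to 6.74. The floor is a percentile of all signals, so a signal above it does not by itself show that a marker is expressed. The labelled line was checked against erythroid and progenitor markers. CD34, GATA1, KLF1, EPOR, KIT and TAL1 exceeded the floor on all 5 arrays and GFI1B on none.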

How the data were processed

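The authors deposited 1 table with a log2 signal per probe set and array for 22283 probe sets on 5 Affymetrix arrays. That the values are log2 was read from their range, 2.08 to 13.77, and the summary method, normalization and software are not given in the sources used here. RNA was column-purified and biotin-labelled by a small-sample protocol, per the labels' protocols. Some deposited values repeat on several arrays. Whether the summary method caused this, or compressed weak signals, is not known. Values were used as deposited. The 68 control probe sets, the 1043 with several symbols and the 2107 with none were left out, and 0 symbols needed updating. The floor was the 40th percentile, and a feature was compared when at least 1 of both arrays exceeded it. Differences are of log2 signals and were called at 2-fold, without a test. Alternatives were quantile normalization, cyclic loess, median subtraction, no floor, a floor at the 60th percentile, the mean of all probe sets and a call at 1.5-fold. The members, the gene lists and the rules were chosen with earlier results of these data known. Named are all members, list genes called or lowest, highest or brightest in a comparison, and the 5 genes most like the member with the widest range. CTSS, RFX5, SPI1, HLA-DRB1 and some markers were named for their role after their values were seen. Python 3.11.15, pandas 2.3.3, R 4.3.3 and limma 3.58.1 (normalization) were used. Each group has 1 array, and that number limits the precision.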

Additional observations from a re-analysis of the deposited data

Results flagged for a closer look

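In 3 members an effect had opposite signs in both arms of the design. Each arm is a difference between single arrays, so the contrast was not tested. In its second probe set HLA-DPA1 was lower under SF than under Epo in vector cells (-0.91) and higher in DbSCL cells (0.36), and these effects differed by -1.27 on the log2 scale. Its brighter probe set had the same sign in both (-0.62 and -0.23). HLA-DMA gave -0.35 in vector and 0.31 in DbSCL cells, a difference of -0.67. HLA-DRA, in its first probe set, gave -0.03 and 0.45, a difference of -0.48, and the same 4 signals read the other way gave DbSCL differences of 0.02 under SF and -0.46 under Epo, which differ by 0.48. Its second probe set had equal signs, and the small first values (-0.03 and 0.02) turned in sign under other scalings.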

How the results depend on the processing

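Across the alternatives, 408 values of single members were recomputed, each judged by the threshold of its own setting. Of these, 399 stayed called or uncalled as before, 3 lost a call, 6 gained one and 0 called values changed sign. All 6 gains came from lowering the call to 1.5-fold, and none of them reached 2-fold. Values near 0, as for CIITA, HLA-DPB1 and HLA-DMB, could hardly gain a call, so the 399 says little about stability. For DbSCL minus vector under Epo, HLA-DPA1 stayed between -1.32 and -1.16 in its brightest probe set under the normalization, floor and probe set alternatives, and between -1.61 and -1.49 in the second. For Epo minus GM-CSF it was short of 2-fold, leaving 0 members called, with quantile normalization (0.72), cyclic loess (0.81) and the mean of all probe sets (0.90). At 1.5-fold 2 members were called for Epo minus GM-CSF and 2 for DbSCL minus vector under Epo, HLA-DMA joining HLA-DPA1 in both. Also at 1.5-fold, 1 was called for SF minus Epo in vector cells (HLA-DPA1, -0.62) and 1 for DbSCL minus vector under SF (HLA-DPA1, -0.90). At that threshold 1344 of 8581, 290 of 8359, 125 of 8312 and 431 of 8450 genes were called in these 4 comparisons. Over all genes, counts moved by more than 1.5 times for Epo minus GM-CSF, from 307 to 203 with quantile normalization and 195 with the mean of all probe sets. They also moved for SF minus GM-CSF, from 51 to 85 with median subtraction and 23 with the mean of all probe sets. For DbSCL minus vector the count under SF went from 30 to 48 with median subtraction and 18 with the mean of all probe sets, and under Epo from 31 to 20 with that mean. For SF minus Epo in DbSCL cells it went from 19 to 12 and 11 with quantile normalization and that mean. The alternatives for the genes most like HLA-DPA1 and for the related lists were added after seeing the data. No paired analysis was possible because each group has 1 array. Leaving out an array would remove its group.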
